A study of Mus musculus with 14 samples.

Results

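The heme synthesis enzymes ALAS1, ALAS2, ALAD, UROS, UROD, CPOX, PPOX and FECH are 8 of the 22842 genes listed in both count tables. They were chosen by name, as the enzymes of the pathway, but with earlier results of these data known. All 8 had counts in both tables and passed the filter on low counts in the main fit of every comparison below, ALAS2 through its erythroid counts. The samples were single mouse cells that were lineage-negative (Lin-) and positive for Tom, a reporter that the labels name without describing it. The labels state neither the strain, age or driver of the reporter nor the event from which days were counted, and no reporter-negative cells were analysed here. Cells at day 3 came from 1 mouse (m4539), cells at day 10 from 1 mouse (m4533), and cells at day 17 from 3 mice (m4528, m605 and m606). The series uses lineage tracing to follow the first steps of blood formation from hematopoietic stem cells (HSC).

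Heme is the iron-carrying porphyrin of hemoglobin, of cytochromes and of peroxidases such as myeloperoxidase. Its synthesis begins in mitochondria, where an ALA synthase joins glycine with succinyl-CoA, continues in the cytosol, and returns to mitochondria for the last steps, which end with the insertion of iron. Most cells use the ALA synthase ALAS1, whose expression is held down by heme. Red cell precursors use ALAS2, whose translation depends on iron supply.

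Of 9357 barcodes in the 2 tables, 1010 had at least 500 detected genes and at least 10000 counts and were kept. The 14 plates held 28933861 counts in kept cells at day 3, 40040649 at day 10 and 25449441 to 64254317 per mouse at day 17, beside 15106375 in a plate that mixed cells of both m605 and m606 and entered only as an alternative. The kept cells used 96 barcodes, each found in more than 1 plate. Cells were gated by the share of a class's marker genes held at more than 10 counts, and no enzyme was a marker. At day 17, mice m4528, m605 and m606 gave 9, 29 and 33 erythroid cells, 10, 8 and 22 megakaryocyte cells, 71, 30 and 28 neutrophil cells, 12, 10 and 14 monocyte cells, and 59, 7 and 26 HSC cells. The gates left 378 of the 1010 cells with no class. The 11 erythroid markers summed to 7912 to 8914 counts scaled to a total of 1e6 (CPM) in erythroid cells and to 49.2 to 559 CPM in the other 4 classes, and KLF1, the master factor of red cells, was held at more than 10 counts by 71 of 71 erythroid cells, 23 of 129 neutrophil cells and 3 of 92 HSC cells. Erythroid cells were sequenced more deeply, with a median of 211345 to 494544 counts per cell against 43889 to 96430 in HSC cells, and the part of this in the differences below was not tested. In erythroid cells of mice m4528, m605 and m606 the 11 monocyte markers summed to 1070, 108 and 119 CPM. The 11 neutrophil markers summed to 1117, 625 and 656 CPM there. Some single cells gated as neutrophil were high in KLF1. The highest had 1671 CPM in mouse m4528, 938 CPM in m605 and 549 CPM in m606. By comparison, the erythroid cell with the least KLF1 had 377 CPM. Whether wells of mouse m4528, or neutrophil cells high in KLF1, held mixed cells was not tested. The part of such neutrophil cells in the differences below was not tested either. Levels are CPM of counts summed over the cells of a mouse. Because reads came from the 3′ end and capture can differ between genes, a gene is compared between classes and not with another gene. Nothing in the labels says more of the mice. In the main fit of the classes each mouse had its own term, which takes out differences in level between animals. The p-values of class comparisons therefore measure how much differences between classes varied among these 3 animals, pooled over the classes fitted.

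By mean level, erythroid cells held more of each enzyme than any other class, with ALAS1 as the exception. UROD, FECH, CPOX and ALAS2 rose in erythroid cells over HSC cells, and UROD, FECH and ALAS2 also rose over neutrophil and over megakaryocyte cells. ALAS1 fell in erythroid cells against neutrophil cells and was highest in neutrophil cells. All calls were made with edgeR's quasi-likelihood test and Benjamini-Hochberg adjustment at 0.05, with the mouse as a block. Against HSC cells, 4 of the 8 enzymes were called higher and 0 lower, where 10.1% of all 12187 genes tested were called (4.87% higher and 5.24% lower). Against neutrophil cells, 3 were higher and 1 lower, where 3.98% of genes were called (0.886% higher and 3.09% lower). Against megakaryocyte cells, 3 were higher and 0 lower, where 3.24% of genes were called (1.02% higher and 2.22% lower). ALAS2 was among the enzymes called higher in each of these comparisons. It passed the filter on low counts only through erythroid cells, where it is high, so it adds no support to these counts. The median log2 fold change of the 8 over HSC cells was 1.81, beside 0.15 for all genes, and with DESeq2 size factors the median of all genes moved to -0.11 and the split of called genes moved to 430 higher and 752 lower, from 594 higher and 639 lower.

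**Figure D1:**
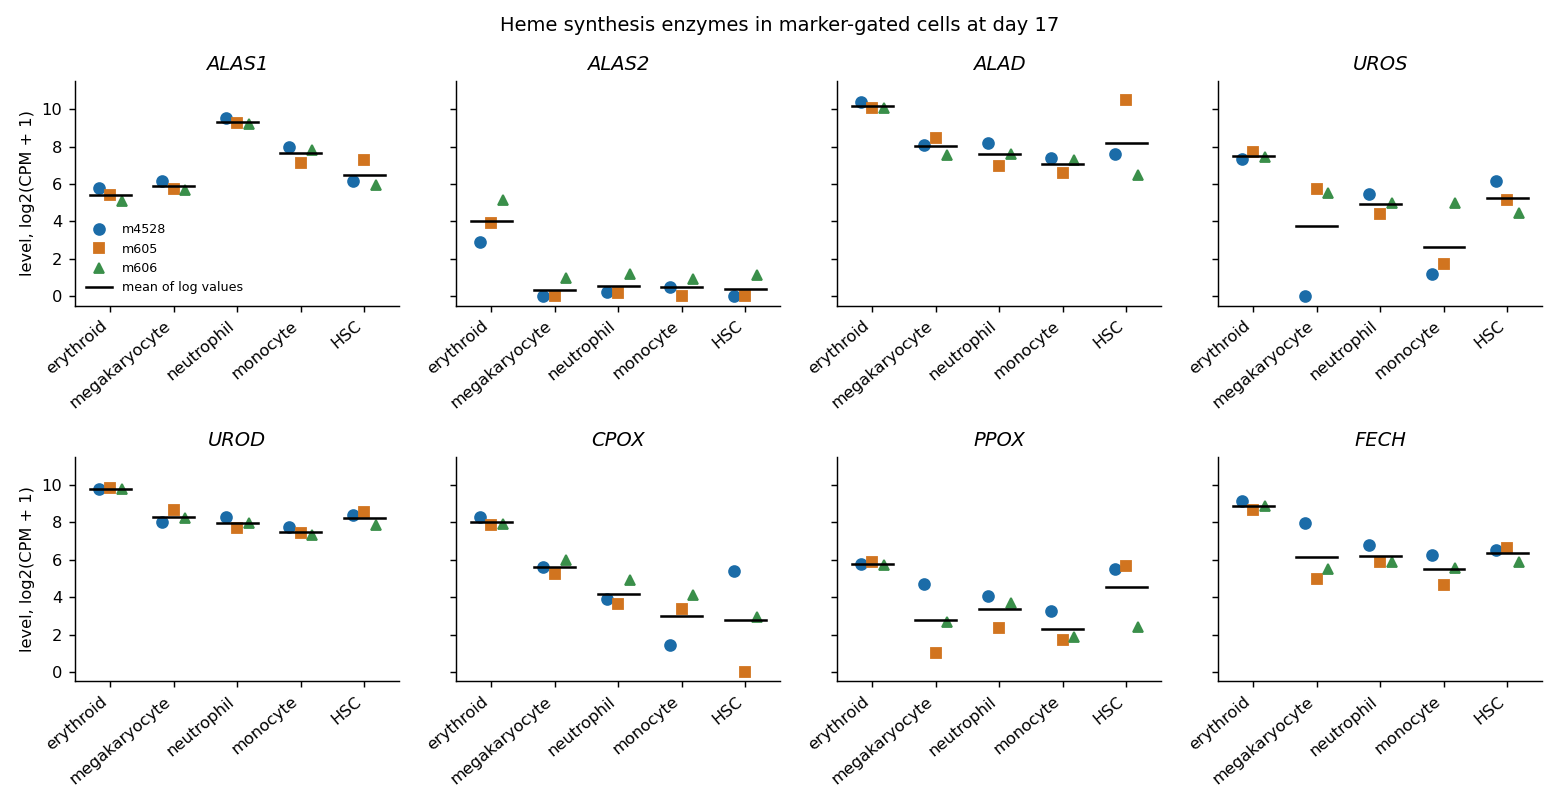
Level of each enzyme as log2(CPM + 1) of counts summed per mouse and class at day 17, with 1 marker per mouse and a bar at the mean of the 3 log values. ALAS1 is highest in neutrophil cells (590 to 735 CPM), while the erythroid points of UROD, CPOX, FECH and ALAS2 lie above those of each other class.

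The pathway opens with the ALA synthases. ALAS1, the ubiquitous form, had 53.7, 41.1 and 33.2 CPM in erythroid cells of mice m4528, m605 and m606. In neutrophil cells it had 735, 610 and 590 CPM. In monocyte cells the values were 255, 136 and 226 CPM, in megakaryocyte cells 71.8, 52.6 and 50.7 CPM, and in HSC cells 70.3, 157 and 61.3 CPM. The neutrophil values stood above those of each other class, whereas monocyte and HSC cells, HSC and megakaryocyte cells, and megakaryocyte and erythroid cells overlapped. The HSC value of mouse m605 rested on 7 cells, 1 of which held 85% of the counts. The log2 fold change of erythroid over neutrophil cells was -3.96 ± 0.42 (SE; adjusted p = 0.000337, edgeR), lower in 3 of 3 mice. Over HSC cells ALAS1 rose in neutrophil cells by a log2 fold change of 2.88 ± 0.40 (adjusted p = 0.00484, edgeR), the 1 enzyme of 8 called there, where 2.63% of genes were called (2.02% higher), or 246 higher and 75 lower, and 160 higher and 94 lower with DESeq2 size factors. It rose in monocyte cells by 1.50 ± 0.39 (adjusted p = 0.0351, edgeR), again 1 of 8, where 8.3% of genes were called (5.06% higher). The fold change of erythroid over HSC cells was -1.09 ± 0.38 and did not pass (adjusted p = 0.0932, edgeR), although DESeq2 called it (adjusted p = 0.0115).

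These ALAS1 calls leaned on single mice to different degrees. For erythroid against neutrophil cells the log2 fold change was -4.12 without mouse m4528 and -3.92 without mouse m605. Both passed (adjusted p = 0.0130 and 0.00924, edgeR). Without mouse m606 the adjusted p was 0.0704 for erythroid against neutrophil cells, 0.292 for neutrophil against HSC cells and 0.356 for monocyte against HSC cells, while the log2 fold changes were -3.84, 2.68 and 1.10. Without mouse m4528, the 1 day 17 mouse of the first table, the comparisons with HSC cells had adjusted p values of 0.0844 for neutrophil and 0.275 for monocyte cells. Without mouse m605 the log2 fold change of monocyte over HSC cells was 2.09 (adjusted p = 0.0250).

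The erythroid level of ALAS1 was 7.30%, 6.73% and 5.63% of the neutrophil level of the same mouse. MPO, the myeloperoxidase gene and a neutrophil marker, stood at 10.9%, 5.52% and 4.60% of its neutrophil level in erythroid cells and was held at more than 10 counts by 71 of 71 of them. ELANE, a neutrophil protease, stood at 4.50%, 2.38% and 2.12%. The part of RNA from other wells or cells in the erythroid ALAS1 counts was not tested. At day 3, where no cell was gated as neutrophil, MPO was at 7.14 CPM in HSC cells, and ALAS1 was at 56.3 CPM in the same cells.

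ALAS2, the red cell form, had 6.57, 14.2 and 34.9 CPM in erythroid cells of mice m4528, m605 and m606. It had 0.180, 0.146 and 1.26 CPM in neutrophil cells, and 0, 0 and 1.21 CPM in HSC cells. Each erythroid value lay above each value in any other class, but the erythroid values themselves varied more, relative to their mean, than those of any other enzyme, with a mean of 18.6 ± 14.7 CPM (SD, n = 3). The counts were few. Over the 3 mice there were 475 ALAS2 counts in erythroid cells, against 12 in neutrophil cells, 3 in monocyte cells, 3 in megakaryocyte cells and 2 in HSC cells. Per total count, this is a ratio of 94.6 over HSC cells (95% exact interval 26.1 to 784, counting error only) and of 64.9 over neutrophil cells (36.8 to 126). The fitted log2 fold change, which depends on the prior count for such low values, was 6.25 ± 1.33 over HSC cells (adjusted p = 0.0127, edgeR), 5.42 ± 1.13 over neutrophil cells (adjusted p = 0.0189) and 6.22 ± 1.31 over megakaryocyte cells (adjusted p = 0.0232). ALAS2 passed the filter on low counts only through erythroid cells, where it is high, and a gene that passes in this way had to differ, so its calls are no support beyond the values given. Without mouse m606 the log2 fold change was 8.75 over HSC and 8.78 over megakaryocyte cells, and without mouse m4528 it was 5.64 over HSC cells. All 3 calls were lost without any 1 of the mice, with adjusted p between 0.0952 and 0.334, and without the mouse block, with adjusted p of 0.0794, 0.127 and 0.125.

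Both ALA synthase genes are shown with the 250 bases before their first listed RefSeq start (GRCm38.p6), because their levels ran in opposite directions between erythroid and neutrophil cells. ALAS2 lies on the plus strand and the bases are chrX:150547167-150547416. ALAS1 lies on the minus strand and the bases are chr9:106247955-106248204, written 5′ to 3′ on the gene's own strand. Capitals mark matches, on either strand, to the letters of the GATA factor motif (GATAA or GATAG, each after A or T) or to CACCC, the core of the motif of KLF1 and its relatives. Matches to the motifs may overlap.
ALAS2: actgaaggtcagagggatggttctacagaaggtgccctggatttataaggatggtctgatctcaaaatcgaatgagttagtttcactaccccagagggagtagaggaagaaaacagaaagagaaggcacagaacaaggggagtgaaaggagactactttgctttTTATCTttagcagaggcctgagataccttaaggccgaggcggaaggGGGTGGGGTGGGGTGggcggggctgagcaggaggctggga
ALAS1: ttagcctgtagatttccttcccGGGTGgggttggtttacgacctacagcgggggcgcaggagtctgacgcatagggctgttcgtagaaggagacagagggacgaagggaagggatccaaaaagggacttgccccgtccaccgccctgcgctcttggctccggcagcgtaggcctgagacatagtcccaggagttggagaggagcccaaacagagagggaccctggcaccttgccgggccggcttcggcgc
The ALAS2 stretch held 1 GATA match and 3 CACCC matches, which lie next to each other on the opposite strand. The ALAS1 stretch held 0 GATA matches and 1 CACCC match. Over windows from 250 bases before to 50 after a start, 29.8% of the 32851 windows of all genes held a GATA match and 57.5% a CACCC match. RefSeq windows were matched for 7 of the 8 enzymes, and GATA matches were found for ALAS2, CPOX and 1 of 2 starts of UROS, while CACCC matches were found for ALAS1, ALAS2, ALAD, UROD and CPOX. A match describes the letters alone.

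ALAS2 took 10.9%, 25.7% and 51.2% of the ALAS1 and ALAS2 counts in erythroid cells of mice m4528, m605 and m606 (exact 95% intervals 7.42% to 15.3%, 21.3% to 30.5% and 47.4% to 55.0%). It took 0.0245%, 0.0239% and 0.213% in neutrophil cells (0.00667% to 0.0626%, 0.000605% to 0.133% and 0.0857% to 0.439%). The intervals of the 2 classes did not overlap in any mouse, and the 3 erythroid intervals did not overlap each other. These intervals treat counts as independent, although single cells held large parts of the erythroid ALAS2 counts. A difference between mice was therefore not tested. The log2 ratio of ALAS2 to ALAS1, with 1 CPM added to each, was -2.85, -1.47 and 0.07 in erythroid cells and -9.29, -9.06 and -8.03 in neutrophil cells. The mean difference was 7.37, in the same direction in 3 of 3 mice. Both classes came from the same 3 mice. A two-sided exact permutation test that ignores this gave p = 0.1, and one that swaps the classes within each mouse gave p = 0.25, in each case the smallest p the design allows.

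**Figure D2:**
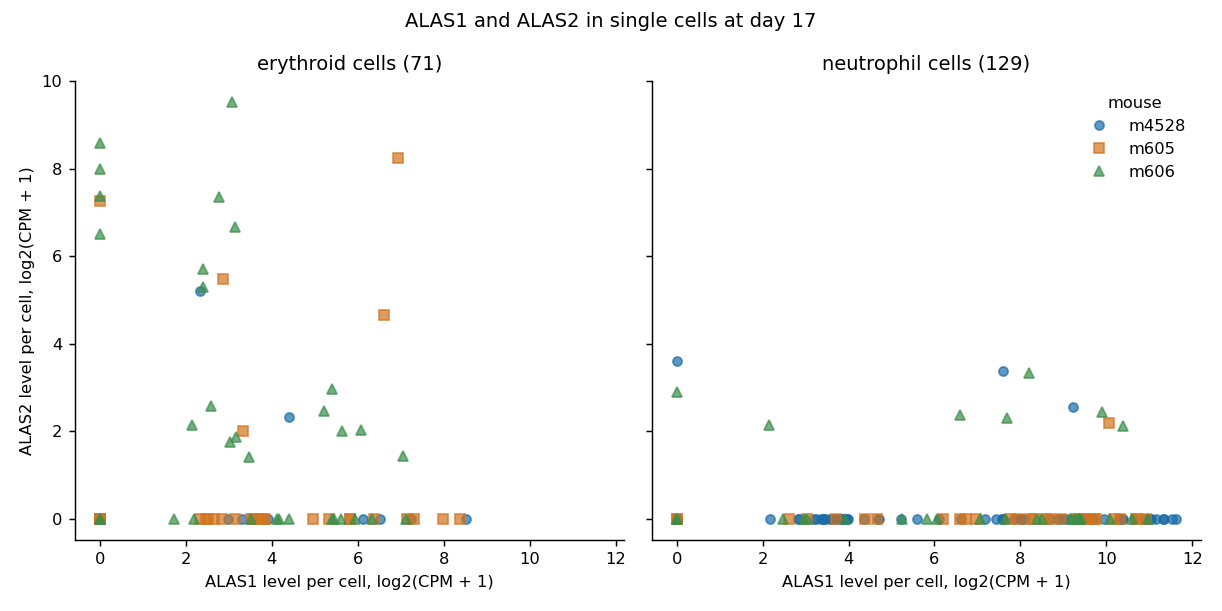
ALAS1 level (x axis) and ALAS2 level (y axis) of single day 17 cells as log2(CPM + 1), for 71 erythroid cells on the left and 129 neutrophil cells on the right, with a marker shape per mouse. Erythroid cells with an ALAS2 count number 26 of 71, against 11 of 129 neutrophil cells, and neutrophil cells spread along the ALAS1 axis.

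Of 71 erythroid cells at day 17, 22 held ALAS1 alone at more than 10 counts, 10 held ALAS2 alone, 1 held both and 38 held neither. With any count in place of more than 10, ALAS2 was found in 26 of the 71 cells, and 21 of these 26 also had an ALAS1 count. ALAS2 at more than 10 counts was found in 1 of 9 cells of mouse m4528, 2 of 29 of mouse m605 and 8 of 33 of mouse m606. In neutrophil cells this was 0 of 71, 0 of 30 and 0 of 28 in the same mice, with exact 95% upper limits of 5.06%, 11.6% and 12.3%, although 11 of these 129 cells had an ALAS2 count. ALAS1 was found at more than 10 counts in 77 of the 129. In mouse m4528 a single erythroid cell held 93.1% of the ALAS2 counts, so its level describes that cell. In mice m605 and m606 the top cell held 55.3% and 28.4%.

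The 11 erythroid cells with ALAS2 also had higher medians of globin and of later enzymes of the pathway. HBA-A1, an adult alpha globin, had a median of 2632 CPM (370 to 6122) in these cells, against 42.5 CPM (0 to 891) in the 22 cells with ALAS1 alone and 45.8 CPM (0 to 2877) in the 38 with neither. ALAD had medians of 1998, 840 and 873 CPM in these 3 sets, UROS 446, 102 and 75.9 CPM, and UROD 1442, 664 and 680 CPM. CPOX had medians of 500.2, 168 and 151 CPM, PPOX 152, 25.8 and 29.6 CPM, and FECH 930.1, 281 and 369 CPM. The ranges of the 3 sets overlapped for each of these enzymes. For CPOX they were 4.71 to 732, 0 to 571 and 0 to 683 CPM, and for FECH 408 to 1661, 6.53 to 913 and 0 to 1085 CPM. KLF1 differed less, with medians of 1464, 1099 and 1110 CPM, and the cells with ALAS2 were not sequenced more deeply (medians of 195433, 301776 and 222646 counts per cell). Of 11 erythroid cells above 1000 CPM of HBA-A1, a limit chosen after the values were seen, 8 held ALAS2 at more than 10 counts. Cells are not replicates, 8 of the 11 cells came from 1 mouse, and no test was made.

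ALAD, which condenses ALA into porphobilinogen, had 1319, 1073 and 1052 CPM in erythroid cells of mice m4528, m605 and m606. It had 286, 122 and 196 CPM in neutrophil cells and 195, 1417 and 89.8 CPM in HSC cells. The erythroid values lay above the neutrophil ones, but the HSC value of mouse m605 lay above all of them, and 96.5% of its counts came from 1 of 7 cells. The log2 fold change of erythroid over HSC cells was 1.44 ± 0.76 (adjusted p = 0.265, edgeR), and without mouse m605 it was 3.28 (adjusted p = 0.00737). Over neutrophil cells it was 2.46 ± 0.73 (adjusted p = 0.0939, edgeR), which passed without mouse m605 (adjusted p = 0.0172) and with DESeq2 (adjusted p = 0.00894). ALAD was held at more than 10 counts by 71 of 71 erythroid cells, 74 of 129 neutrophil cells and 15 of 92 HSC cells. A cut of 10 counts is a higher level in HSC cells, which were sequenced less deeply. The part of depth in these cell counts was not tested.

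UROS, which closes the porphyrin ring, had 162, 207 and 171 CPM in erythroid cells, against 42.4, 19.9 and 30.4 CPM in neutrophil cells and 69.7, 34.0 and 20.6 CPM in HSC cells. The erythroid values lay above all of these, yet the log2 fold changes, 2.49 ± 1.35 over neutrophil and 2.00 ± 1.35 over HSC cells, did not pass (adjusted p = 0.469 and 0.393, edgeR). It was listed with 0 counts in the 10 megakaryocyte cells of mouse m4528.

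UROD, which removes carboxyl groups from the ring, had the smallest SD of the 8 across mice in erythroid cells, relative to its mean. It had 888, 913 and 861 CPM in erythroid cells, against 260, 401 and 301 CPM in megakaryocyte cells, 311, 209 and 246 CPM in neutrophil cells and 328, 369 and 231 CPM in HSC cells. The erythroid values lay far above the others, and megakaryocyte, neutrophil and HSC cells overlapped. The log2 fold change of erythroid cells was 1.78 ± 0.26 over neutrophil cells (adjusted p = 0.00296, edgeR), 1.47 ± 0.26 over megakaryocyte cells (adjusted p = 0.00956) and 1.61 ± 0.26 over HSC cells (adjusted p = 0.00322). All 3 were higher in 3 of 3 mice. They passed without mouse m605, and missed the threshold without mouse m606 (adjusted p = 0.187, 0.262 and 0.169) and without mouse m4528 (0.0530, 0.168 and 0.0507).

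CPOX and PPOX, mitochondrial enzymes that oxidise the ring one after the other, differed in how firmly they were called. CPOX had 312, 232 and 243 CPM in erythroid cells, against 14.1, 11.2 and 29.7 CPM in neutrophil cells and 41.5, 0 and 6.67 CPM in HSC cells. The values did not overlap. The log2 fold change was 4.15 ± 1.10 over HSC cells (adjusted p = 0.0353, edgeR) and 3.88 ± 1.06 over neutrophil cells, which did not pass (adjusted p = 0.0683, edgeR; 0.000155 with DESeq2). Without mouse m4528 the log2 fold change over HSC cells was 6.16 (adjusted p = 0.0266), and the call was lost without mouse m605 (0.131) and without mouse m606 (0.285). PPOX had 53.2, 58.3 and 52.0 CPM in erythroid cells, against 15.8, 4.09 and 11.9 CPM in neutrophil cells and 45.1, 49.8 and 4.25 CPM in HSC cells. Its HSC values in mice m4528 and m605 came close to the erythroid ones. For both enzymes the HSC value of mouse m605 rested on 7 cells with 381819 counts in all. The log2 fold changes of 2.52 ± 1.07 over neutrophil and 1.02 ± 1.05 over HSC cells did not pass (adjusted p = 0.278 and 0.602, edgeR).

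FECH, which places iron into protoporphyrin, had 571, 400 and 460 CPM in erythroid cells. In megakaryocyte cells it had 250, 29.9 and 44.1 CPM, in neutrophil cells 108, 56.9 and 58.5 CPM, and in HSC cells 91.3, 99.5 and 58.2 CPM. Erythroid values lay above all others, and mouse m4528 stood out among the megakaryocyte sums. The log2 fold change of erythroid cells was 2.74 ± 0.56 over neutrophil cells (adjusted p = 0.0167, edgeR), 2.55 ± 0.57 over megakaryocyte cells (adjusted p = 0.0315) and 2.58 ± 0.56 over HSC cells (adjusted p = 0.0142). Over HSC cells the call was lost without mouse m4528 (adjusted p = 0.0588) and without mouse m606 (0.229). Over neutrophil cells it was lost without any 1 mouse (0.0740 to 0.334). Over megakaryocyte cells it was lost without mouse m605 (0.176) and without mouse m606 (0.374), and without mouse m4528 the log2 fold change was 3.54.

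**Figure D3:**
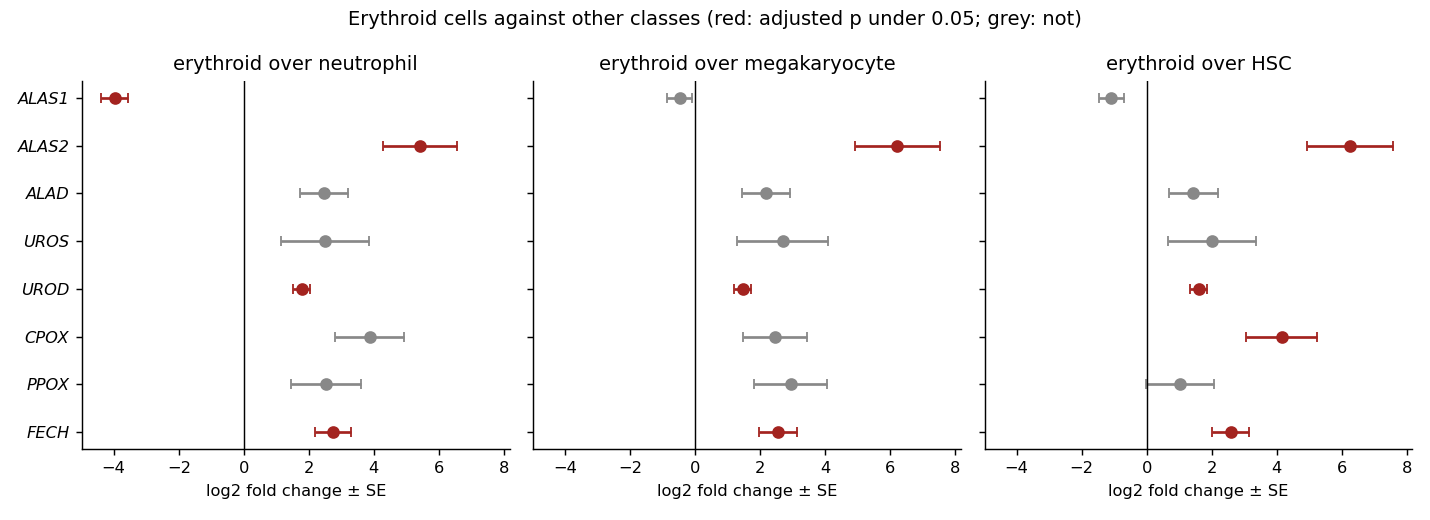
Log2 fold change of erythroid cells over neutrophil, megakaryocyte and HSC cells at day 17, with SE bars from the edgeR fit over 3 mice; red points passed an adjusted p of 0.05 and grey points did not. ALAS1 lies left of 0 in each panel (-3.96 over neutrophil cells), and the other 7 enzymes lie right of it.

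Between megakaryocyte and HSC cells 0 of 8 enzymes were called by edgeR, where 1.81% of genes were called (1.09% higher), or 133 higher and 87 lower, and 81 higher and 98 lower with DESeq2 size factors. Of the enzymes, 0 of 8 had an unadjusted p under 0.05, and DESeq2 called 0 of 8 as well. CPOX was higher in 3 of 3 mice with 48.5, 36.1 and 61.6 CPM in megakaryocyte cells, against 41.5, 0 and 6.67 CPM in HSC cells.

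The 8 enzymes were then set along the erythroid cells, ranked by KLF1 within each mouse. The position of an enzyme is the mean KLF1 rank of the cells, from 0 for the lowest to 1 for the highest, weighted by the enzyme's CPM. From low to high the mean positions were 0.488 ± 0.215 for ALAS1, 0.533 ± 0.128 for CPOX, 0.570 ± 0.073 for FECH, 0.571 ± 0.077 for UROD, 0.577 ± 0.180 for PPOX, 0.582 ± 0.025 for ALAD, 0.658 ± 0.201 for ALAS2 and 0.680 ± 0.026 for UROS (SD, n = 3). Each step from 1 enzyme to the next was smaller than the larger SD of the pair, so this order is not resolved by 3 mice. UROS and ALAD had the smallest SDs, with ranges of 0.651 to 0.700 and 0.560 to 0.609. With a marker share of at least 0.3 these were 0.621 to 0.723 and 0.489 to 0.636 and overlapped, and the plate that mixed 2 mice gave 0.475 for UROS and 0.567 for ALAD.

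The mice differed most for the synthases. ALAS1 lay at 0.704, 0.486 and 0.273 in mice m4528, m605 and m606, and ALAS2 at 0.462, 0.648 and 0.864. In mice m605 and m606 ALAS1 thus came before ALAS2, and in mouse m4528, with 9 erythroid cells, it came after it. The plate that held cells of m605 and m606 together gave 0.482 for ALAS1 and 0.884 for ALAS2 over 15 erythroid cells. As a description over cells, Spearman's rho with KLF1 in the 33 cells of mouse m606 was -0.57 for ALAS1, 0.63 for ALAS2, 0.73 for UROD, 0.70 for ALAD and 0.69 for UROS. In the 29 cells of mouse m605 these were -0.14, 0.14, 0.69, 0.31 and 0.65.

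**Figure D4:**
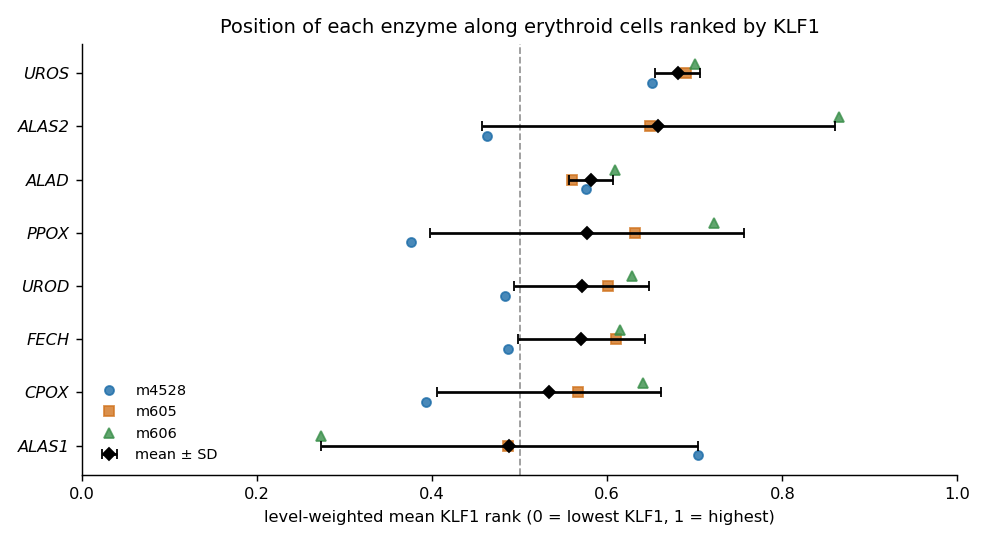
Position of each enzyme along erythroid cells ranked by KLF1 (x axis, CPM-weighted mean rank), with 1 marker per day 17 mouse and the mean with its SD in black; the dashed line marks the middle rank. ALAS1 and ALAS2 have the widest spread over mice (0.273 to 0.704 and 0.462 to 0.864), and UROS and ALAD the narrowest.

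Erythroid cells were also split at the middle KLF1 rank of each mouse and their counts summed. ALAD had 1637, 1297 and 1324 CPM in the higher-KLF1 cells of the 3 mice (m4528, m605 and m606), against 1045, 864 and 803 CPM in the lower-KLF1 cells. It was higher in 3 of 3 mice, with no overlap. UROD had 924.7, 1227 and 1043 CPM in the higher-KLF1 cells and 857, 620.3 and 694 CPM in the lower-KLF1 cells. CPOX had 361, 257 and 303 CPM in the higher-KLF1 cells and 269.9, 209 and 187 CPM in the lower-KLF1 cells. The log2 fold change was 0.71 ± 0.12 for ALAD, 0.62 ± 0.20 for UROD and 0.53 ± 0.19 for CPOX, with unadjusted p of 0.00253, 0.0266 and 0.0417 (edgeR), and none passed the adjustment (0.995 for each). Over all 9730 genes, edgeR called 0 (0% of those tested), 318 had an unadjusted p under 0.05, and DESeq2 called 38, ALAD among them (adjusted p = 0.00925). This fit had 2 residual degrees of freedom.

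ALAS2 had 0, 26.9 and 69.2 CPM in the higher-KLF1 cells, against 12.2, 2.34 and 3.42 CPM in the lower-KLF1 cells, so mouse m4528 ran the other way from both others. ALAS1 had 69.0, 52.5 and 17.2 CPM in the higher-KLF1 cells and 40.5, 30.4 and 47.9 CPM in the lower-KLF1 cells, and there mouse m606 ran the other way. UROS had 123, 337 and 254 CPM in the higher-KLF1 cells and 195, 85.6 and 95.6 CPM in the lower-KLF1 cells. PPOX had 30.8, 82.5 and 82.5 CPM in the higher-KLF1 cells and 72.5, 35.6 and 24.0 CPM in the lower-KLF1 cells. FECH had 559, 549.7 and 565 CPM in the higher-KLF1 cells and 582, 259.8 and 363 CPM in the lower-KLF1 cells. For these 3 enzymes too mouse m4528 was the 1 mouse with lower levels in its higher-KLF1 cells, which numbered 4 and had 3.92 CPM of the globin HBB-BT, against 144 CPM in its lower-KLF1 cells. In mice m605 and m606 HBB-BT had 1101 and 1612 CPM in the higher-KLF1 cells, against 268 and 236 CPM in the lower-KLF1 cells.

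**Figure D5:**
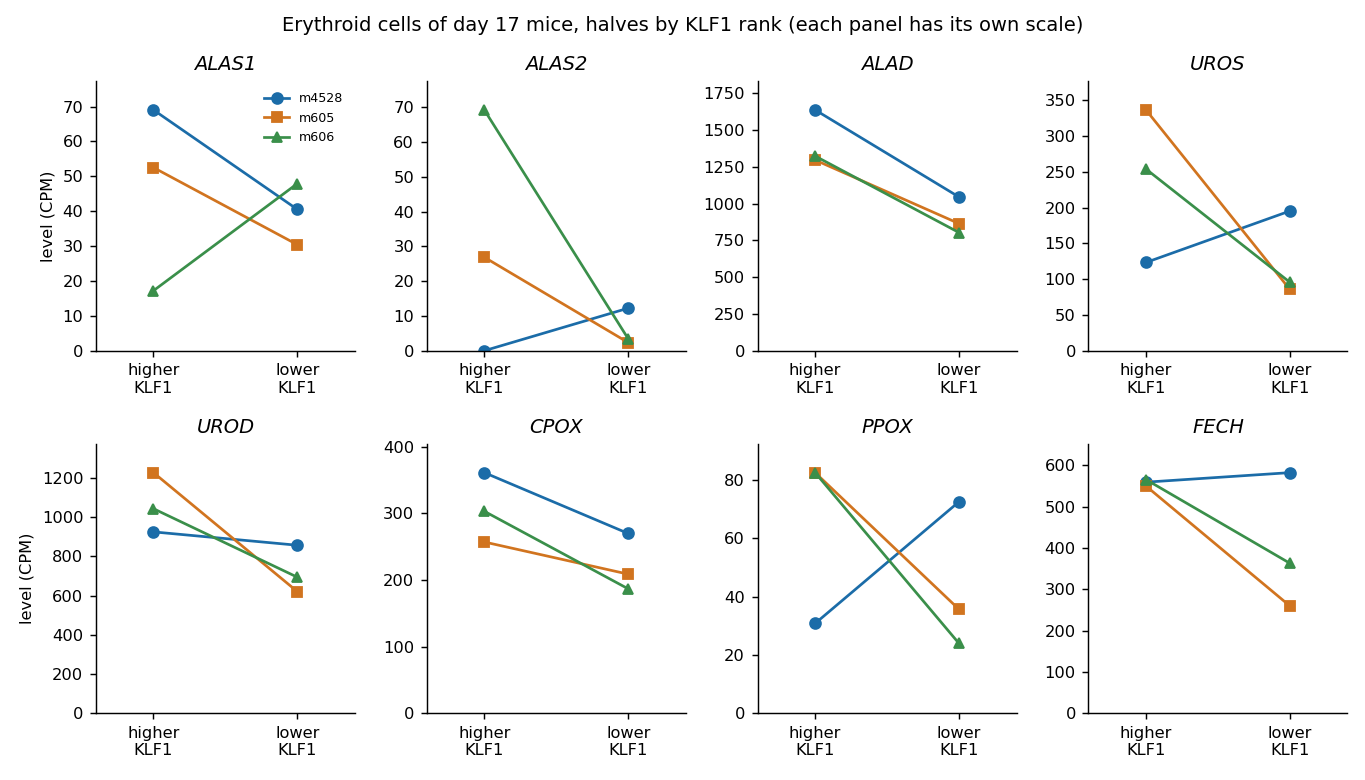
Level in CPM of each enzyme in the higher-KLF1 (left) and lower-KLF1 (right) erythroid cells of each day 17 mouse, with a line per mouse and a scale per panel. ALAD, UROD and CPOX are higher on the left in 3 of 3 mice (ALAD 1297 to 1637 CPM, against 803 to 1045 CPM).

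Across days, 1 mouse each stood for days 3 and 10. Over all kept cells, ALAS1 had 66.5 CPM in the day 3 mouse and 114 CPM in the day 10 mouse. In the day 17 mice it had 420 CPM (m4528), 207 CPM (m605) and 189 CPM (m606). Its slope, drawn by the table term from the 3 mice of the first table, was 2.78 ± 0.43 on the log2 scale per 14 days and did not pass (unadjusted p = 0.00138, adjusted p = 0.271, edgeR). DESeq2 called it (adjusted p = 8.67e-06). Without mouse m4528 the slope was 1.54 on the same scale. It then came from the day 3 and day 10 mice alone, because the table term takes up mice m605 and m606, and it says nothing of day 17. Neutrophil cells made up 0% of kept cells in the day 3 mouse, 1.87% in the day 10 mouse, and 24.7%, 21.0% and 14.8% in the day 17 mice, and their part in the slope was not tested. Within HSC cells alone the day 3 mouse had 56.3 CPM of ALAS1, the day 10 mouse 71.4 CPM and the day 17 mice 70.3, 157 and 61.3 CPM.

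ALAS2 had 0 counts at day 3 and at day 10, where 3 counts would be 0.104 and 0.0749 CPM, and 0.576, 3.77 and 12.2 CPM at day 17. The day 17 value of mouse m4528, from the same table as the earlier days, was at least 5.55-fold higher than at day 3 and at least 7.69-fold higher than at day 10, and 73.0% of its counts came from 1 cell. Both earlier days held 1 erythroid cell each, and neither cell had an ALAS2 count, while their ALAS1 levels were 91.2 and 91.1 CPM. FECH over all kept cells had 162 CPM, then 197 CPM, then 156, 166 and 187 CPM in the mice of days 3, 10 and 17. ALAD had 205 CPM, then 343 CPM, then 348, 495 and 461 CPM, and CPOX had 42.3 CPM, then 50.05 CPM, then 51.7, 83.5 and 97.1 CPM. Over all 16740 genes edgeR called 0 (0% of those tested) and so 0 of the 8 enzymes. At an unadjusted p under 0.05 there were 1473 genes, 2 of them enzymes, and DESeq2 called 455 genes, ALAS1 among them.

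The other genes of heme transport and iron handling were a list of 36, of which 33 were in both tables and 31 were tested. They gave 9 higher and 1 lower in erythroid over HSC cells (edgeR, adjusted p under 0.05). Of all genes, 10.1% were called there (4.87% higher and 5.24% lower). Of the 9, ABCB6 had 4.17 to 6.80 CPM in erythroid cells, 0 CPM in HSC cells and at most 1.33 CPM in the other classes. ABCB6 passed the filter on low counts only through erythroid cells, where it is high, so its call is no support. The median log2 fold change of the list was 2.06. Among the 6 with the lowest p were BLVRB, TMEM14C, GLRX5, SLC40A1 and HMOX2. TMEM14C, which serves porphyrin import into mitochondria, averaged 1188 ± 453 CPM in erythroid and 151 ± 36.3 CPM in HSC cells (SD, n = 3 each, here and for the next genes), with a log2 fold change of 2.98 (adjusted p = 0.000283). Over HSC cells it was also called higher in neutrophil (1.27, adjusted p = 0.0478, edgeR), megakaryocyte (1.81, 0.0162) and monocyte cells (1.94, 0.00311). Erythroid cells passed over neutrophil cells (adjusted p = 0.00779, edgeR) but not over megakaryocyte cells (0.0581). GLRX5, of iron-sulfur cluster assembly, averaged 1540 ± 313 CPM in erythroid and 224 ± 104 CPM in HSC cells, with 2.88 (adjusted p = 0.000834). BLVRB, a biliverdin reductase, averaged 2439 ± 995 CPM in erythroid and 279.9 ± 52.0 CPM in HSC cells, with 3.11 (adjusted p = 0.000203). SLC40A1, the iron exporter ferroportin, averaged 117 ± 43.7 CPM in erythroid and 0.763 ± 0.945 CPM in HSC cells, with 7.80 (adjusted p = 0.00471). SLC40A1 was also called higher in neutrophil over HSC cells (5.33, adjusted p = 0.0486, edgeR). HMOX2, a heme-degrading oxygenase, was the 1 of the list that fell, with 166 ± 43.7 CPM in erythroid and 825 ± 461 CPM in HSC cells and a log2 fold change of -2.32 (adjusted p = 0.0106). The list gave 6 higher and 0 lower in erythroid over neutrophil cells (3.98% of all genes called, 0.886% higher). In erythroid over megakaryocyte cells it gave 5 and 0 (3.24%, 1.02% higher). In neutrophil over HSC cells it gave 2 higher and 1 lower (2.63%, 2.02% higher).

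Over the 15 sums of a mouse and a class at day 17, which share mice and depth, the genes whose log2(CPM + 1) ran most like ALAS1 were ELANE (Pearson's r = 0.927), PRSS57 (0.926), TREM3 (0.918), MPO (0.913) and CEBPA (0.908). ELANE and MPO are markers of the neutrophil gate. Those most like ALAS2 were GPR155 (0.981), GM37915 (0.968), DMTN (0.958), SLC26A1 (0.955) and ASB17 (0.951). DMTN encodes a protein of the red cell membrane skeleton. These are descriptions over 12187 genes and carry no test.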

How the data were processed

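Single cells were sorted into plates, and a modified Smart-seq2 protocol sequenced transcript 3′ ends, per the labels' protocols. The deposited values are 2 tables of unnormalised counts for each gene in each barcode. Per the submitters' processing notes, reads were placed on GRCm38. The aligner, the counter and any molecular identifiers are not given in the sources, so intervals and floors cover counting error only. Members and gene lists were chosen with earlier results of these data known.

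A cell took the class with the highest share of its markers at more than 10 counts, if that share was at least 0.4 and led by at least 0.1. Counts were summed per mouse and class where a mouse had at least 5 cells, so the mouse was the replicate, and classes of the same mouse were paired by the animal. edgeR 4.0.16 in R 4.3.3 (quasi-likelihood test, TMM, filterByExpr, Benjamini-Hochberg over all genes tested) was fitted to 5 classes at once with the mouse as a block, leaving 8 residual degrees of freedom. The day slope had a table term and 5 mice. DESeq2 1.42.0 was an alternative. The scripts were tested on simulated data. Named genes were the 8 enzymes, the 6 listed iron genes with the lowest p in erythroid against HSC cells (1 of them is not reported here), and the 5 genes most like ALAS1 and ALAS2; the single other genes named were gate markers or globins. Doublets were not called, since a sorter filled each well, and mixed wells were not tested for. Basophil or mast cells were too few for a comparison.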

Additional observations from a re-analysis of the deposited data

How the results depend on the processing

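Of the 13 member calls, 0 changed direction under the alternatives, which set 166 values, and 116 of these kept their side of the threshold. The 50 losses lay mostly where a mouse was left out (10 without m4528, 6 without m605 and 13 without m606), and fewer samples then enter the fit. Leave-one-out counts of all genes called ran from 84 to 461 for erythroid against HSC cells, 21 to 172 for erythroid against neutrophil, 34 to 110 for erythroid against megakaryocyte, 5 to 87 for neutrophil against HSC, 0 to 7 for megakaryocyte against HSC and 122 to 291 for monocyte against HSC cells. The enzymes called then ran from 0 to 3 for erythroid against HSC and against neutrophil, 0 to 2 for erythroid against megakaryocyte, and 0 to 1 for neutrophil and monocyte against HSC cells.

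For these 6 comparisons in that order, DESeq2 called 2455, 1232, 1212, 1097, 1173 and 2334 genes, and the mixed plate gave 2214, 978, 853, 896, 600 and 1798. DESeq2 called 38 genes along KLF1 and 455 with day, with 1 enzyme in each, 5 enzymes in erythroid against megakaryocyte cells and 2 in monocyte against HSC cells. Without the table term the day slope gave 18 genes. Without the mouse block 145 genes were called in neutrophil against HSC cells, 128 in megakaryocyte against HSC cells, 1 enzyme in erythroid against megakaryocyte cells and 0 in monocyte against HSC cells. A marker share of at least 0.5 gave 149 genes and 1 enzyme in erythroid against megakaryocyte cells, 29 genes in megakaryocyte against HSC cells and 0 enzymes in monocyte against HSC cells. Chosen after the data were seen, markers at 100 CPM or more gave 768 genes in erythroid against neutrophil and 74 in megakaryocyte against HSC cells. Cells scaled to 100000 counts, also chosen then, gave 143 genes in megakaryocyte against HSC cells, and 1 enzyme against HSC, 2 against neutrophil and 1 against megakaryocyte cells in the erythroid comparisons. ALAS2 fell below the filter there. In monocyte against HSC cells 0 enzymes were called with cell scaling, with DESeq2 size factors or with no filter on low counts. The cause was not tested for any of them.

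Along KLF1 no enzyme was called, and with 1 mouse left out the log2 fold change ran from -0.29 to 0.77 for ALAS1, -0.78 to 3.999 for ALAS2 and -0.018 to 1.55 for PPOX, with the negative values without m4528 or m605 for ALAS1, without m605 or m606 for ALAS2 and without m606 for PPOX. With cells in 3 sets by KLF1, highest against lowest, ALAS1 was at -0.40. With log2(CPM + 1) as weight the positions of ALAD and UROS were 0.518 and 0.594. The erythroid minus neutrophil difference in the log2 ratio of ALAS2 to ALAS1 ran from 4.97 to 7.69 over its alternatives, and swapping the classes within each mouse, a replicate block chosen after the data were seen, left it at 7.37 (exact permutation p = 0.25). ALAS2 rests on 475 erythroid counts. The comparison of basophil or mast cells with HSC cells was not run, as day 17 mice held 2, 0 and 3 such cells.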
